A study of Mus musculus with 6 samples.

Results

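The genes described here are 8 long noncoding genes that carry small nucleolar RNAs (snoRNAs) in their introns: Gas5, Snhg1, Snhg3, Snhg4, Snhg5, Snhg6, Snhg8 and Snhg12. They were taken by symbol from a table of 52459 gene rows. All 8 had a row, and 7 of them entered the test over 14130 genes. Only Snhg3 had too few reads for it. The table came from RNA sequencing of 6 samples of flash frozen mouse liver tumours. Their genotype was MYC-LAP-tTA: the liver promoter LAP drives the tetracycline transactivator tTA, and tTA turns on a MYC transgene. The MYC_On group is 3 samples taken while MYC was switched on, and the MYC_Off group is 3 samples taken on day 4 after it was switched off. Both groups carry the same transgenes, and the sources used here give no age, sex or strain for the animals. Nothing in the labels ties the 3 samples of a group to separate animals. The p-values therefore reflect only how far these samples spread, and that spread may be technical.

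Small nucleolar RNAs guide chemical changes in ribosomal RNA. Box C/D snoRNAs direct 2′-O-methylation with fibrillarin, and box H/ACA snoRNAs direct pseudouridylation with dyskerin, while a few take part in cutting the ribosomal precursor. Most vertebrate snoRNAs are not transcribed alone. They are released from introns after a host transcript is spliced. The hosts described here encode no known protein, their exons are joined into a spliced RNA, and many begin with the pyrimidine run (5′ terminal oligopyrimidine tract) that also marks messages of ribosomal proteins. Spliced hosts such as Gas5 are translated over short reading frames and then removed by nonsense-mediated decay, so that Gas5, named for growth arrest, is known to build up when translation slows. MYC is a transcription factor that raises ribosome production.

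The hosts differ in the cargo they carry. In GENCODE release M21 (build mm10, also called GRCm38), Gas5 holds 9 snoRNA loci, Snhg1 holds 8, Snhg12 holds 4, Snhg3, Snhg4 and Snhg5 hold 2 each, and Snhg6 and Snhg8 hold 1 each. Of the 29 annotated snoRNA transcripts in the members other than Snhg4, 17 have both box C (TGATGA within the first 20 bases) and box D (CTGA within the last 15 bases), 6 end in the ACA box of the H/ACA class 3 bases before the 3′ end, and 6 match neither of these exact letters. The sequences below show what an intron of each kind releases, with the boxes in capitals, 5′ to 3′ on the host's strand, from GENCODE. Snord47 comes from Gas5, Snord50a and Snord50b from Snhg5, Snord87 from Snhg6 and Snora24 from Snhg8.
Snord47: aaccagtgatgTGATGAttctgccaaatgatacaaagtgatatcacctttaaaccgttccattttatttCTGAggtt
Snord50a: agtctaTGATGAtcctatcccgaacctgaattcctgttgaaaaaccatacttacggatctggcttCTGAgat
Snord50b: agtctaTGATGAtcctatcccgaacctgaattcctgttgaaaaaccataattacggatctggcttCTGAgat
Snord87: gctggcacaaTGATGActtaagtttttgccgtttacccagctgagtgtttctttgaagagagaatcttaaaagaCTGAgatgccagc
Snora24: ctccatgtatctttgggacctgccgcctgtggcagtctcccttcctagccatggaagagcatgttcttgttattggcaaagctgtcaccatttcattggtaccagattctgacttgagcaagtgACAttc
Snord50a and Snord50b are both 72 bases long and differ at 1 base, C50A, counted from 1 at the 5′ end with the base of Snord50a first.

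The windows around the annotated start sites are shown because some, not all, of the hosts hold a TATA match or a pyrimidine run there. The 7 windows used, from RefSeq (GRCm38.p6), belong to 6 of the members, with 2 starts for Gas5. No window was searched for Snhg4 or Snhg6, so the counts below do not cover them. Each line runs from 50 bases before the start to 50 bases from it onward, on the gene's strand. Capitals mark TATAAA or TATATA lying between 45 and 16 bases before the start, and a run of at least 5 pyrimidines that opens with C within 3 bases of the start.
Gas5, left start (chr1:161034551-161034650, plus strand): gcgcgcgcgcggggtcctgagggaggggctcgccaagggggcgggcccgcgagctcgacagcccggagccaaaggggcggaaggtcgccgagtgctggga
Gas5, right start (chr1:161035116-161035215, plus strand): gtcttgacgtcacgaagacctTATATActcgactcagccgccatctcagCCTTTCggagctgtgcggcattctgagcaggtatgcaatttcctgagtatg
Snhg8 (chr3:123508287-123508386, minus strand): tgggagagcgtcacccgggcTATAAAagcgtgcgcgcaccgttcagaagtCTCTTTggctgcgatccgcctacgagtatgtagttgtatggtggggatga
Snhg12 (chr4:132308628-132308727, plus strand): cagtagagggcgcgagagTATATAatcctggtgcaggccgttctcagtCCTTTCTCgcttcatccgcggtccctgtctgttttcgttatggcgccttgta
Snhg5 (chr9:88522848-88522947, minus strand): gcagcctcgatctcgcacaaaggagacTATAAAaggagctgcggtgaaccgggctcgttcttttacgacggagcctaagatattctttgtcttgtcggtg
Snhg1 (chr19:8723437-8723536, plus strand): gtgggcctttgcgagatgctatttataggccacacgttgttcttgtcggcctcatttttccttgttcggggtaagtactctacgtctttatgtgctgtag
Snhg3 (chr4:132353637-132353736, minus strand): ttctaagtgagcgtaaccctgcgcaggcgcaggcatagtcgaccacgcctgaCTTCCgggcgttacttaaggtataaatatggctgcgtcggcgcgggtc
A TATA match at that place was in 4 of the 7 windows (the right start of Gas5, Snhg5, Snhg8 and Snhg12) and in 2.96% of 32851 windows of all genes. The pyrimidine run was in 4 of 7 (the right start of Gas5, Snhg3, Snhg8 and Snhg12) and in 11.5% of all. The left start of Gas5 and that of Snhg1 had neither. The E-box CACGTG, the site that MYC with MAX binds best, was sought on both strands over the full 300 bases (250 before and 50 after the start). It was in 0 of the 7 member windows and in 7.15% of all windows. The non-canonical E-box CACGCG was in 1 of the 7, that of Snhg5, and in 9.27% of all. A match or its lack here describes these letters only.

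The libraries held 16292718 to 19265623 reads assigned to genes. Levels are CPM, counts relative to library size, scaled by TMM to correct for library composition. A log2 fold change below 0 means a lower level in MYC_Off than in MYC_On, and SE is its standard error. In this scale 1 read stood for 0.0409 to 0.0768 CPM. Myc itself had 779, 1018 and 854 CPM in MYC_On and 74.8, 10.2 and 18.7 CPM in MYC_Off, for replicates 1, 2 and 3. Reads of the transgene and of mouse Myc cannot be told apart in this row. Of 7 hepatocyte marker rows, 7 were higher in MYC_Off (summed level 3290 to 7460 CPM in MYC_On and 109000 to 280000 CPM in MYC_Off), while 6 of 6 markers of dividing cells were lower (1010 to 1320 CPM and 66.8 to 137 CPM). Markers of other cell types also moved with the groups. Those of macrophages were higher in 6 of 6 cases (355 to 681 CPM and 1390 to 4710 CPM), those of stellate cells and fibroblasts in 6 of 6 (123 to 132 CPM and 942 to 2020 CPM), those of the endothelium in 4 of 5 tested (50.4 to 56.9 CPM and 224 to 545 CPM), those of erythroid cells in 4 of 4 (31.4 to 90.6 CPM and 665 to 2280 CPM), those of T cells in 5 of 5 tested (5.52 to 10.1 CPM and 29.2 to 178 CPM), those of neutrophils in 3 of 3 tested (0.614 to 1.83 CPM and 86.9 to 137 CPM) and those of B cells in 2 of 2 tested (2.33 to 4.54 CPM and 8.07 to 104 CPM). Of the 4 cholangiocyte markers 1 was higher and 1 lower (37.4 to 88.5 CPM and 23.9 to 62.8 CPM). The part of these shifts in the host results was not tested. In bulk tumour RNA, fewer cells of a type and less RNA per cell cannot be told apart.

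The host transcripts were lower 4 days after MYC inactivation. Of the 7 tested members 6 fell, 0 rose and 1, Snhg8, did not pass (edgeR's quasi-likelihood test, Benjamini-Hochberg adjusted p under 0.05). Over all tested genes 22.8% fell and 29.9% rose, 52.7% in either direction. No member was higher at an unadjusted p under 0.05, and DESeq2 and limma-voom likewise called 6 members lower and 0 higher. Of the 14130 genes, DESeq2 called 3848 lower and 4437 higher, and limma-voom 3330 and 3862. The median log2 fold change of the 7 was -2.04, beside 0.18 over all tested genes. In 6 members every MYC_Off library lay below every MYC_On library, a pattern seen in 29.8% of tested genes. Every tested member had at least 14 reads in each library. Together the 8 rows took 401, 414 and 488 CPM in MYC_On and 127, 92.6 and 160 CPM in MYC_Off.

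**Figure D1:**
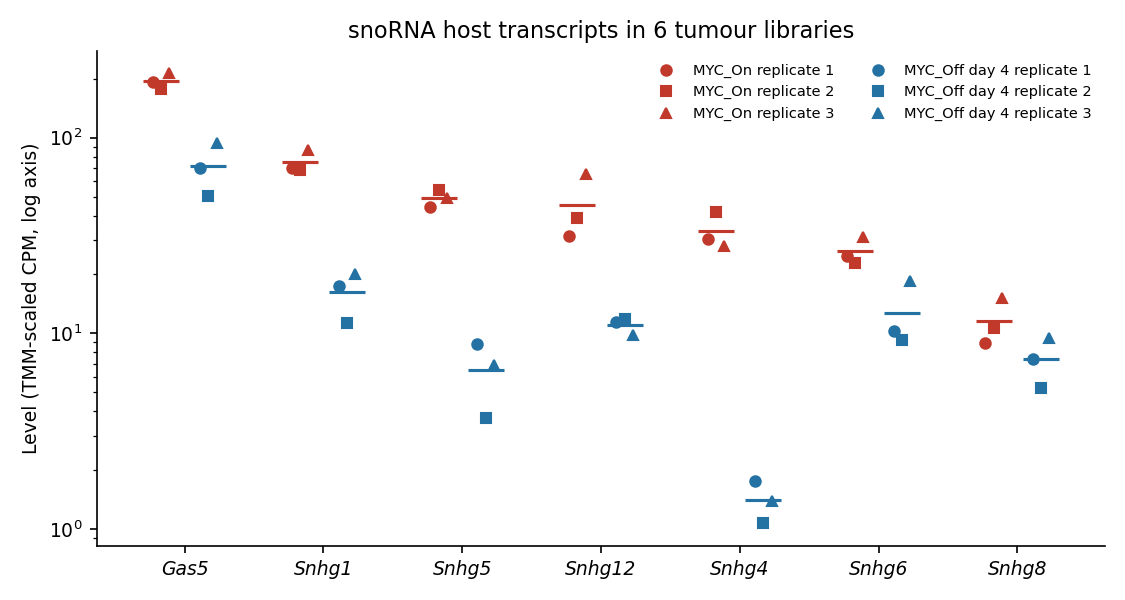
Level of each tested host in TMM-scaled CPM on a log axis, one point per library, with horizontal bars for the mean of 3 libraries. In every host except Snhg8 the 3 MYC_Off points lie below the 3 MYC_On points. Snhg4 shows the widest gap, from a mean of 33.2 to 1.40 CPM.

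Among the hosts of box C/D snoRNAs, Gas5 was the most abundant. Gas5 (chromosome 1, 161034422 to 161038539, plus strand, mm10, a noncoding processed transcript) stood at 192, 178 and 213 CPM in MYC_On and at 70.2, 50.1 and 94.1 CPM in MYC_Off. The groups did not overlap, and MYC_Off replicate 2 was the lowest library. Gas5 averaged 194 ± 17.9 CPM in MYC_On and 71.5 ± 22.0 CPM in MYC_Off (SD, n = 3). It fell 2.72-fold, by 1.44 on the log2 scale (SE 0.28, edgeR adjusted p = 0.00558).

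Snhg1 (chromosome 19, 8723475 to 8726443, plus strand), which hosts Snord22 and other snoRNAs, stood at 70.2, 68.6 and 86.2 CPM in MYC_On and at 17.4, 11.2 and 20.1 CPM in MYC_Off. As for Gas5, replicate 2 was the lowest and replicate 3 the highest of the MYC_Off libraries. The levels of the groups lay apart, and the log2 fold change of Snhg1 was -2.21 (SE 0.28, edgeR adjusted p = 0.0013).

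Snhg5 (chromosome 9, 88521050 to 88522929, minus strand), the host of Snord50a and Snord50b, stood at 44.0, 53.7 and 49.0 CPM in MYC_On and at 8.85, 3.67 and 6.91 CPM in MYC_Off. The spread within MYC_On was narrow, with a coefficient of variation of 9.95%, against 40.4% in MYC_Off. Snhg5 changed by -2.91 (SE 0.35, edgeR adjusted p = 0.0012), which is 7.52-fold.

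Snhg6 (chromosome 1, 9941959 to 9944118, minus strand, a lincRNA), whose intron holds Snord87, had a smaller change. It stood at 24.7, 22.9 and 31.0 CPM in MYC_On and at 10.2, 9.26 and 18.4 CPM in MYC_Off, so the groups lay apart but MYC_Off replicate 3 came near the MYC_On level. The log2 fold change was -1.05 (SE 0.33, edgeR adjusted p = 0.031). Without MYC_On replicate 1, 2 or 3 in turn the adjusted p of Snhg6 was 0.0696, 0.0586 and 0.0961, and the call was lost each time, with log2 fold changes of -1.15, -1.19 and -0.97. Exons of Snhg6 overlap those of Mcmdc2 on the other strand over 127 bases, or 11.1% of its exon bases. Mcmdc2 had 43 to 69 reads per MYC_On library and 22 to 87 per MYC_Off library, against 555 to 629 and 121 to 240 of Snhg6.

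Snhg12 (chromosome 4, 132308623 to 132311024, plus strand) carries both classes, with Snora16a, Snora44, Snora61 and Snord99. It stood at 31.6, 38.6 and 65.3 CPM in MYC_On, the widest relative spread of the tested hosts in that group (coefficient of variation 39.4%). In MYC_Off it stood at 11.4, 11.8 and 9.76 CPM, the narrowest spread (9.87%). Unlike Gas5, Snhg1 and Snhg5, Snhg12 was not lowest in replicate 2. Its log2 fold change was -2.04 (SE 0.32, edgeR adjusted p = 0.00257).

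The hosts of box H/ACA snoRNAs gave both the largest and the smallest change. Snhg4 (chromosome 18, 35553410 to 35558316 in RefSeq), the host of Snora74a, stood at 30.3, 41.5 and 27.8 CPM in MYC_On and at 1.76, 1.07 and 1.38 CPM in MYC_Off. In reads this was 680, 1013 and 564 against 32, 14 and 18. Snhg4 fell by 4.55 on the log2 scale (SE 0.34, edgeR adjusted p = 0.000805), a 23.4-fold change, and only 0.304% of tested genes had a lower log2 fold change. The protein-coding model Gm28285 shares 246 exon bases with the GENCODE model at this place, on the same strand, and had 15, 15 and 12 reads in MYC_On and 0 in each MYC_Off library.

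Snhg8 (chromosome 3, 123507552 to 123508404, minus strand), the host of Snora24, stood at 8.91, 10.6 and 15.1 CPM in MYC_On and at 7.36, 5.28 and 9.45 CPM in MYC_Off. The groups overlapped, since MYC_Off replicate 3 lay above MYC_On replicate 1. The log2 fold change of Snhg8 was -0.65 (SE 0.36, edgeR adjusted p = 0.165). With scaling by library size only it was -1.37 (adjusted p = 0.0251), so whether Snhg8 passed depended on the scaling.

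Snhg3 (chromosome 4, 132348014 to 132353686, minus strand), the host of Snora73a and Snora73b, which act in cutting the ribosomal precursor, could not be judged. It had 0, 4 and 0 reads in MYC_On and 4, 3 and 0 in MYC_Off. Of its exon bases in GENCODE, 83.3% are shared with other counted genes, 135 bases with Rcc1 on the same strand and 705 with Gm17300 on the other. Rcc1, the chromatin-bound exchange factor for the Ran GTPase, starts 81 bases away and fell from 232 ± 24.1 to 17.3 ± 8.17 CPM (SD, n = 3; log2 fold change -3.74, SE 0.38, edgeR adjusted p = 0.000892). Gm17300 had 69, 99 and 64 reads in MYC_On and 4, 0 and 3 in MYC_Off. The sources used here do not say how reads that match more than 1 gene were counted.

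Set in order of their change, neighbours mostly could not be separated by their library values. Relative to the MYC_On mean, the 3 MYC_Off libraries of Snhg4 ranged from -4.80 to -4.14 on the log2 scale, below all libraries of Snhg5 (-3.69 to -2.45). After that each range overlapped the next: Snhg1 (-2.72 to -1.89), Snhg12 (-2.13 to -1.86), Gas5 (-1.95 to -1.04), Snhg6 (-1.48 to -0.49) and Snhg8 (-1.08 to -0.25). Differences in response between members were not tested.

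Levels can be compared between hosts only per length, here as CPM per kilobase of all annotated exon bases. These bases include transcripts that retain introns (3760 bases for Gas5), so the levels of the spliced RNAs are understated. For Snhg4 they are those of the GENCODE model under another name. The understatement may differ between hosts, since 1 exon block spans all of Snhg1, Snhg8 and Snhg12, while Snhg6 has 3 blocks. How far the order of the hosts depends on this annotation was not tested. In MYC_On, Gas5 was highest at 51.7 ± 4.77 CPM per kilobase (SD, n = 3) and did not overlap with Snhg5 at 28.3 ± 2.81. Snhg5, Snhg1 (25.3 ± 3.26), Snhg6 (22.9 ± 3.71), Snhg12 (18.8 ± 7.40) and Snhg8 (13.5 ± 3.78) each overlapped with the next, and Snhg4 was below them at 7.11 ± 1.56. In MYC_Off the order by mean was Gas5 (19.0 ± 5.86), Snhg6 (11.03 ± 4.40), Snhg8 (8.63 ± 2.44), Snhg1 (5.47 ± 1.53), Snhg12 (4.58 ± 0.451), Snhg5 (3.74 ± 1.51) and Snhg4 (0.301 ± 0.0737) CPM per kilobase. Each of these overlapped with the next except Snhg5, whose libraries all lay above Snhg4.

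The mix of host transcripts differed between the groups as well, a measure that does not depend on scaling between libraries. Gas5 took 47.8%, 42.9% and 43.7% of the reads of the 8 hosts in MYC_On and 55.1%, 54.0% and 58.8% in MYC_Off. Snhg8 took 2.22%, 2.56% and 3.10% and then 5.78%, 5.70% and 5.90%, and Snhg6 took 6.16%, 5.54% and 6.36% and then 8.02%, 10% and 11.5%. These 3 shares were higher in all MYC_Off libraries. The shares of Snhg1, Snhg4 and Snhg5 were lower in all MYC_Off libraries, with group means of 17.2% and 12.8% for Snhg1, 7.75% and 1.13% for Snhg4, and 11.3% and 5.08% for Snhg5. That of Snhg12 overlapped between groups (10.2% ± 2.86 and 9.26% ± 3.33, SD, n = 3). Shares sum to a fixed whole, so a fall of some raises others, and no test was made of them. An exact permutation test of 3 against 3 cannot give a p below 0.1.

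**Figure D2:**
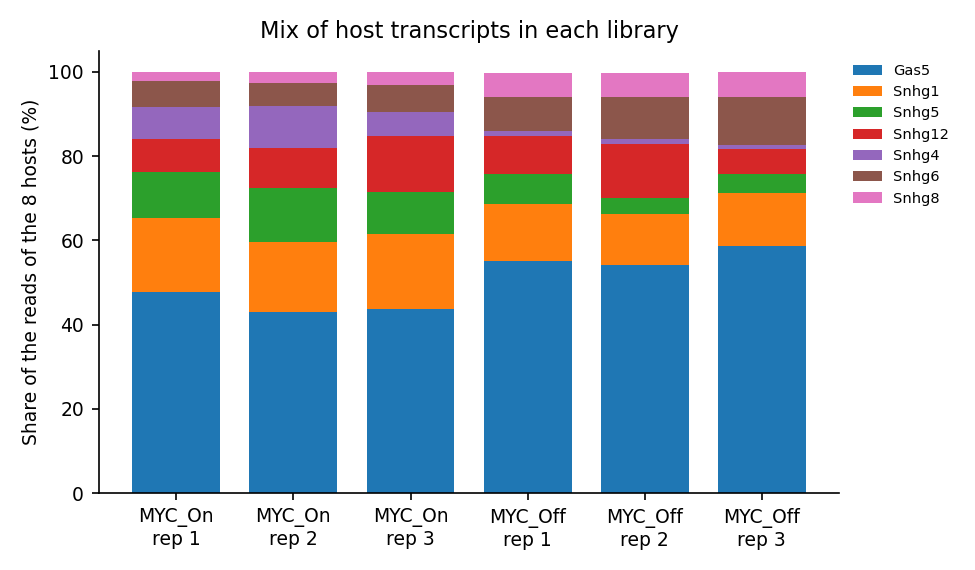
Share of each host in the reads of the 8 hosts, in percent, one stacked bar per library (Snhg3, at most 0.248%, is not drawn). The Gas5 part is taller in the 3 MYC_Off bars (54.0% to 58.8%) than in the 3 MYC_On bars (42.9% to 47.8%), and the Snhg4 part shrinks to between 0.863% and 1.38%.

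Within MYC_Off, the library with the most residual Myc was not the one with the most of every host. Myc was highest in MYC_Off replicate 1 (74.8 CPM), but Gas5, Snhg1, Snhg6 and Snhg8 were highest in replicate 3, where Myc stood at 18.7 CPM. Snhg4 and Snhg5 were highest in replicate 1, and Snhg12 in replicate 2 (11.8 CPM), where Myc was lowest at 10.2 CPM. With 3 libraries no relation can be tested.

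The deposited table says little about the snoRNAs themselves. Of 29 snoRNA rows placed inside the members 27 had 0 reads in all 6 libraries. The 2 exceptions were Snord87 in Snhg6, with 71 reads over the 6 libraries, and Snora16a in Snhg12, with 11. Snord87 is one of 2 that overlap no exon of the host in GENCODE, the other being Snora73b of Snhg3, which had 0 reads. Of all 138 rows named Snora or Snord, 83 had no read, and the rows together took 0.00273% to 0.00371% of MYC_On reads and 0.000427% to 0.000593% of MYC_Off reads. A row at 0 here therefore does not show that a snoRNA was absent, and the host values measure host transcripts only.

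Noncoding snoRNA hosts outside the 8 were lower too. In a list of 19 symbols (13 with a row, 12 tested) 9 fell, or 75%, against 22.8% of all tested genes. In this list 0 rose, against 29.9% of all tested genes, and the median log2 fold change was -1.76, beside 0.18. At an unadjusted p under 0.05, 1 was higher, Snhg18. DESeq2 called 9 lower and 1 higher, and limma-voom 8 lower and 0 higher. Those that fell were Dancr (-3.46, SE 0.36), Snhg9 (-3.76, SE 0.95), Snhg14 (-3.01, SE 0.77), Snhg15 (-2.45, SE 0.36), Snhg20 (-2.07, SE 0.33), Snhg17 (-1.85, SE 0.31), 2410006H16Rik (-1.66, SE 0.43), Zfas1 (-1.49, SE 0.35) and Epb41l4aos (-1.18, SE 0.42). Dancr, from 16.2 ± 3.97 to 1.47 ± 0.181 CPM (SD, n = 3), had the smallest adjusted p of the list (0.000896, edgeR). Snhg9 had only 21, 30 and 59 reads in MYC_On and 0, 2 and 3 in MYC_Off.

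The 3 that did not pass had other patterns. Snhg18 had 240, 118 and 266 reads in MYC_On and 369, 166 and 727 in MYC_Off (log2 fold change 1.63, SE 0.62, edgeR adjusted p = 0.0581). Rian, an imprinted transcript with 13 snoRNA loci, had 643, 674 and 290 reads in MYC_On and 37, 481 and 437 in MYC_Off (0.03, SE 0.85), so that 1 MYC_Off library lay far below the other two. Snhg11 had 9, 11 and 9 reads and 3, 22 and 4 reads (0.70, SE 0.85).

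**Figure D3:**
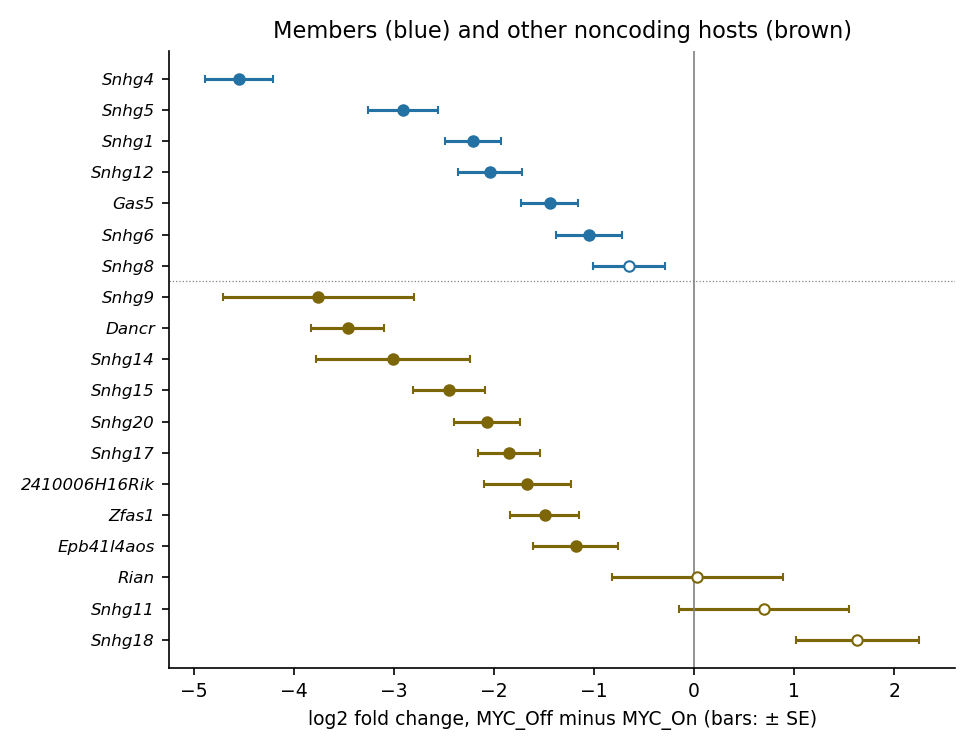
Log2 fold change, MYC_Off minus MYC_On, for the 7 tested hosts (blue, upper part) and the 12 tested other noncoding hosts (brown), with bars for ± SE. Filled points passed an edgeR adjusted p of 0.05 and open points did not. The blue points run from -4.55 (Snhg4) to -0.65 (Snhg8), and all lie left of 0.

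Whether carrying a snoRNA went with the direction was described from the annotation, in classes drawn up after the data had been seen. Of 20 tested lncRNA genes with a snoRNA inside on the same strand (members left out, list above partly included), 15 fell and 1 rose, with a median log2 fold change of -1.97. The one that rose was A430035B10Rik (2.49, SE 0.61, edgeR adjusted p = 0.0128). Of 605 tested lncRNA genes without one, 88 fell and 137 rose (14.5% and 22.6%), with a median of 0.28. For protein-coding genes the same split gave 48.5% lower and 11.8% higher among 204 with a snoRNA inside (median -0.88), and 22.8% lower and 31.1% higher among 12623 without (median 0.21). With scaling by library size only, the medians of these 4 classes were -2.67, -0.48, -1.60 and -0.53, so the medians of both classes without a snoRNA changed sign. The split of calls in them also turned, to 142 lower and 81 higher for lncRNA genes and 4768 lower and 2344 higher for protein-coding genes. That scaling moved the median of all tested genes by -0.73. These are descriptions of lists, with no test of the difference.

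**Figure D4:**
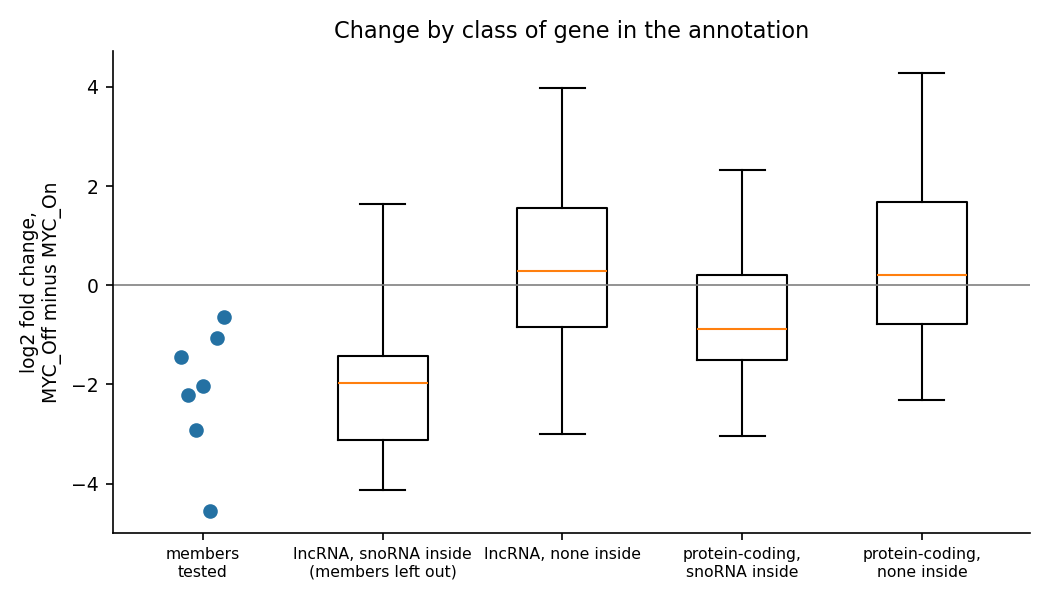
Log2 fold change, MYC_Off minus MYC_On, of the 7 tested members (points) and of 4 annotation classes (boxes span the quartiles, the middle line is the median, whiskers reach from the 5th to the 95th percentile). The class of lncRNA genes with a snoRNA inside has its median at -1.97, near the middle of the members, and the lncRNA class without one has it at 0.28.

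Protein-coding snoRNA hosts form a further list. Of 44 tested, 32 fell and 0 rose, with a median log2 fold change of -1.39, where 22.8% of all tested genes fell and 29.9% rose. In this list 0 were higher also at an unadjusted p under 0.05, with DESeq2 and with limma-voom. Taf1d, a subunit of the RNA polymerase I factor SL1, fell from 142 ± 42.5 to 15.96 ± 2.59 CPM (-3.16, SE 0.29, edgeR adjusted p = 0.000824), and Nop56 from 122 ± 28.3 to 14.4 ± 3.74 CPM (SD, n = 3). Of the 12 that did not pass, 2 had a log2 fold change above 0, Tpt1 (0.28, SE 0.33) and Cwf19l1 (0.02, SE 0.34). Most of this list encodes ribosomal proteins, whose processed pseudogenes make their counts uncertain.

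Transcripts of the proteins that bind the released snoRNAs were lower together with the hosts. Protein levels were not measured. All 4 measured transcripts of box C/D core proteins fell (median log2 fold change -2.79). They include the scaffold Nop58, from 274 ± 6.85 to 40.3 ± 7.25 CPM, and Nop56 (-3.08, SE 0.30), with fibrillarin (Fbl) at -2.82 and Snu13 at -2.45. All 4 transcripts of box H/ACA core proteins also fell (median -2.94). Nhp2 was at -3.22 (SE 0.31), the pseudouridine synthase dyskerin (Dkc1) at -3.14 (SE 0.35), Gar1 at -2.74 and Nop10 at -1.79. For both groups 0 rose, also at an unadjusted p under 0.05, with DESeq2 and with limma-voom. Among all tested genes 22.8% fell and 29.9% rose. Nop56 and Dkc1 are themselves snoRNA hosts and are counted in that list as well.

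Transcripts of factors that assemble or mature these particles fell in 11 of 13 cases (median -1.65). In edgeR, DESeq2 and limma-voom 0 were higher, and 0 at an unadjusted p under 0.05. For comparison, 22.8% of all tested genes fell and 29.9% rose. The AAA+ protein Ruvbl2 fell from 177 ± 22.2 to 21.2 ± 5.74 CPM (-3.06, SE 0.28), and Naf1, which brings H/ACA particles together at the site of transcription, from 50.8 ± 7.78 to 11.1 ± 2.09 CPM. The 2 that did not pass were Pih1d1 (-0.07, SE 0.21) and Tgs1 (-0.69, SE 0.27).

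Nonsense-mediated decay removes spliced Gas5 and other hosts, and the transcripts of its factors were read for that reason. Of 17 tested, 12 fell and 0 rose, with a median log2 fold change of -1.01, where 22.8% of all tested genes fell and 29.9% rose. Among these factors 0 were higher at an unadjusted p under 0.05, with DESeq2 and with limma-voom. The exon junction helicase Eif4a3 fell from 137 ± 5.44 to 46.7 ± 5.74 CPM and its partner Rbm8a from 105 ± 10.2 to 45.8 ± 3.85 CPM (SD, n = 3). The central helicase Upf1 fell by 0.97 (SE 0.32). Upf3a (0.05, SE 0.34), Smg6 (0.51, SE 0.24), Smg9 (-0.64, SE 0.28), Xrn1 (-0.51, SE 0.24) and Dcp2 (-0.63, SE 0.30) did not pass.

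The coding genes that lie next to the hosts did not all move with them. Snhg1 and Slc3a2, the heavy chain of amino acid transporters, start 106 bases apart on opposite strands. Slc3a2 stood at 164, 198 and 166 CPM in MYC_On and at 156, 86.3 and 92.3 CPM in MYC_Off (-0.66, SE 0.29, edgeR adjusted p = 0.0964), where Snhg1 fell by 2.21. The ratio of Snhg1 to Slc3a2 reads was 0.429, 0.346 and 0.518 in MYC_On and 0.111, 0.130 and 0.218 in MYC_Off, a mean log2 difference of -1.54. Gas5 and Zbtb37 start 427 bases apart, also on opposite strands. The Gas5 start used for this distance is the left end of its GENCODE model (161034422), not one of the RefSeq starts shown above. Zbtb37, whose gene body overlaps Gas5, stood at 13.01, 11.7 and 8.58 CPM in MYC_On and at 9.01, 24.0 and 21.9 CPM in MYC_Off (0.72, SE 0.41, edgeR adjusted p = 0.176). The ratio of Gas5 to Zbtb37 reads was 14.7, 15.1 and 24.9 in MYC_On and 7.79, 2.09 and 4.30 in MYC_Off, a mean log2 difference of -2.10. Both ratios were lower in each MYC_Off library than in any MYC_On library, and both gave p = 0.1 in an exact two-sided permutation test (0.1 also after Benjamini-Hochberg adjustment over the 2 pairs), the smallest p that 3 against 3 samples allow.

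Neighbours at a greater distance went both ways. Serpinc1, on the left of Gas5, encodes antithrombin, a liver plasma protein, and rose (2.72, SE 0.56). Matr3 beside Snhg4 fell by 1.13 (SE 0.32) and Sil1 on its other side rose from 16.3 ± 1.10 to 46.0 ± 8.89 CPM. Syncrip beside Snhg5 fell by 1.75 (SE 0.27) and Zfp949 on its other side rose by 1.33 (SE 0.27). Wdr74, a ribosome assembly factor on the right of Snhg1, fell by 1.81 (SE 0.46), and Sgk3 on the left of Snhg6 fell by 1.18 (SE 0.24). Tcf24 on the other side of Snhg6 (0.85, SE 0.37) and Mcmdc2, which overlaps it (0.55, SE 0.65), did not pass, nor did Trnau1ap between Snhg12 and Snhg3 (-0.34, SE 0.26). Phactr4 beside Snhg3 fell by 0.78 (SE 0.28). Prss12 and Ndst3 beside Snhg8 and Rab42 beside Snhg12 had too few reads to test.

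**Figure D5:**
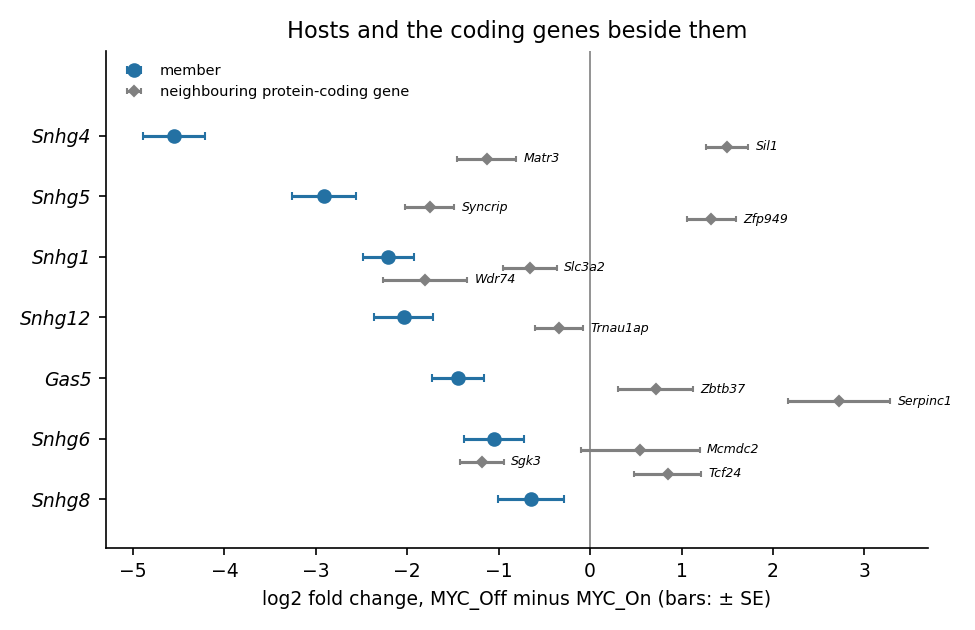
Log2 fold change, MYC_Off minus MYC_On, of each tested host (blue circles) and of some of the tested protein-coding genes next to it or overlapping it (grey diamonds, named), with bars for ± SE. Gas5 at -1.44 lies left of Zbtb37 at 0.72, and Snhg4 at -4.55 lies left of both Matr3 (-1.13) and Sil1, which is on the right of 0.

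The tested genes whose course over the 6 libraries lay nearest to the median course of the members were Coq4, Fastkd5, Timm50, Dtd1 and Mrps27. Likeness was the root mean square distance in log2 CPM, with the MYC_On mean of each gene set to 0, over the 9420 genes that averaged 10 CPM or more. The distances were 0.0931 for Coq4, 0.102 for Fastkd5, 0.114 for Timm50, 0.116 for Dtd1 and 0.117 for Mrps27. Their log2 fold changes ran from -2.05 (Timm50) to -1.81 (Mrps27). The median course was nearly flat over MYC_Off replicates 1, 2 and 3 (-1.903, -1.95 and -1.885). Every tested member ranged more widely there, as did Snhg5 (-2.448, -3.691 and -2.799). Nearness to the median course therefore does not mean nearness to each host.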

How the data were processed

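Reads of 6 tumour RNA libraries were counted per gene symbol. The deposited counts are whole numbers, not normalized by the authors. The submitters' processing notes name featureCounts, STAR, Trimmomatic, Picard and DESeq2 and the build mm10. The sources used here give no versions, annotation or strand setting. Group and replicate were read from each title. MYC_Off was compared with MYC_On in edgeR 4.0.16 (R 4.3.3) with filterByExpr (minimum count 10, minimum total 15), TMM, a robust quasi-likelihood fit over 14130 genes and Benjamini-Hochberg adjustment at 0.05. Each SE is the size of the log2 fold change over the root of F, and log2 CPM used a prior count of 2. Date-like symbols (26 rows) were kept under row numbers. Of the symbols, 91.7% matched GENCODE M21. Snhg4 was placed by its RefSeq coordinates, where GENCODE has a model under another name.

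The members, lists and named genes were chosen with earlier results of these data known. Named were the members, Myc, all tested genes of the second noncoding host list, the 2 genes with the smallest adjusted p in each other list plus the few that went against its direction, neighbours from the annotation (1 of them is not reported here), and the 5 nearest profiles. Members of small lists outside this rule (Fbl, Snu13, Dkc1, Nop10, Upf1, and genes that did not pass) and A430035B10Rik were named after their values were seen. Libraries of a group differed by more than sampling noise, with a chi-square per degree of freedom of 32.1 or more. In counts simulated for this comparison over 13865 genes, 50 genes were changed at each fold. Of the changes, 2% were recovered at 2-fold, 40% at 4-fold, 80% at 8-fold and 88% at 16-fold, with 11 false calls. Far fewer genes changed there than the 52.7% called here, so these shares need not hold for the real fit. Alternatives were other scalings, filters, DESeq2 1.42.0, limma-voom (limma 3.58.1), a replicate block, leaving out each replicate, a stricter threshold of 0.01 and a fit that was not robust. Figures used matplotlib 3.10.9.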

Additional observations from a re-analysis of the deposited data

How the results depend on the processing

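All 7 tested hosts kept a negative log2 fold change in each of 16 alternatives, and in 107 of 112 combinations the call was as reported. The exceptions were Snhg6 without any one MYC_On replicate and at an adjusted p of 0.01, and Snhg8, which passed with library size only. The threshold of 0.01 reuses the main fit, so it could neither change a sign nor make Snhg8 pass. Over all genes, library size only gave 5300 lower and 2527 higher (32.3% of calls higher, against 56.7%), and a threshold of 0.01 gave 1889 and 2368. Leaving out 1 library at a time gave 2776 (without MYC_On replicate 2) to 4317 genes higher. Of the other noncoding hosts 1 was higher with DESeq2, 1 with the replicate block, and 0 to 1 when libraries were left out in turn (1 without MYC_Off replicate 2). At 0.01, 4 of them were lower, as were 21 protein-coding hosts. Apart from the stricter threshold, the cause of these changes was not tested.

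The labels do not say whether replicate numbers pair the samples. Same-numbered libraries correlated at -0.262, -0.168 and 0.04 in their deviations from the group means. With 3 libraries per group these correlations cannot decide it. With the replicate block 6 hosts were lower and 0 higher, beside 2611 lower and 3152 higher of all tested genes. Per kilobase of exon, the log2 shift in share (MYC_Off over MYC_On) was slightly lower for every host, by a similar amount. Dividing by a fixed length moves all hosts alike, so this could not change how their shifts differ. The log2 shift was 0.20 against 0.32 for Gas5, -0.55 against -0.43 for Snhg1 and -2.89 against -2.77 for Snhg4. Low counts limit Snhg3, with 4 reads in MYC_On and 7 in MYC_Off, and the snoRNA rows. Whether depth or the handling of reads that match more than 1 gene kept them low was not tested.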
